A study of Mus musculus with 4 samples.

Results

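A set of 5 genes that androgen is known to raise in prostate epithelium, *Fkbp5*, *Tmprss2*, *Zbtb16*, *Hpgd* and *Abhd2*, were followed through single-cell RNA sequencing of the mouse prostate. They were chosen by name, as 5 of the 31053 gene rows in each of 4 matrices of unique molecular identifiers (UMIs, each of which stands for 1 captured mRNA molecule), and all 5 had a row in all 4. The mice were P2-*Runx1*:RFP reporters on the ICR (CD-1) background, in which RFP is driven by the proximal P2 promoter of *Runx1*, so RFP+ and RFP- cells carry the same reporter allele and differ by the sort gate. EPCAM+ (epithelial) cells were sorted by lobe (AP, anterior, DLP, dorsolateral, or VP, ventral) and as RFP+ or RFP-, and were marked with 1 barcode per population. Runs 1 to 3 each held a pool of intact adults older than 8 weeks, and runs 1 and 2 also held a pool of males castrated for more than 4 weeks. The fourth library held urogenital sinus explants taken at E15.5 of gestation, the fetal tissue from which the prostate buds, at day 0 without culture and after 1, 3 and 6 days with 10 µM dihydrotestosterone.

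Androgens act through a nuclear receptor when testosterone binds it, or dihydrotestosterone, the stronger ligand made from testosterone inside the prostate. The ligand-bound receptor binds response elements in promoters and distant enhancers, and secretory luminal cells shrink and die when testosterone is withdrawn by castration. The products of the 5 genes sit at different points of the pathway. The *Fkbp5* protein is a partner of Hsp90 in steroid receptor complexes, *Zbtb16* encodes the zinc finger repressor PLZF, *Tmprss2* encodes a serine protease of the luminal cell membrane, *Hpgd* encodes the dehydrogenase that inactivates prostaglandins, and *Abhd2* encodes a lipid hydrolase. *Fkbp5* and *Zbtb16* are also raised by glucocorticoids, whose receptor recognises the same DNA core motif.

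On GRCm38, *Fkbp5* (ENSMUSG00000024222) lies on chr17:28399094-28517527, *Tmprss2* (ENSMUSG00000000385) on chr16:97564682-97611195 and *Zbtb16* (ENSMUSG00000066687) on chr9:48654297-48836222, all on the minus strand. *Hpgd* (ENSMUSG00000031613) on chr8:56294585-56321043 and *Abhd2* (ENSMUSG00000039202) on chr7:79273199-79365508 are on the plus strand. All 5 are protein-coding. The bases just before the RefSeq start site (GRCm38.p6) were read for the 4 members that had an entry, because *Fkbp5*, *Hpgd* and *Abhd2* differed between the AP gates in the same direction, while *Tmprss2* did not pass the test there. Each sequence runs 5′ to 3′ on the strand of its gene, and capitals mark GC boxes (GGGCGG) and CCAAT boxes (CCAAT) on either strand.
Fkbp5, chr17:28486150-28486399, minus strand: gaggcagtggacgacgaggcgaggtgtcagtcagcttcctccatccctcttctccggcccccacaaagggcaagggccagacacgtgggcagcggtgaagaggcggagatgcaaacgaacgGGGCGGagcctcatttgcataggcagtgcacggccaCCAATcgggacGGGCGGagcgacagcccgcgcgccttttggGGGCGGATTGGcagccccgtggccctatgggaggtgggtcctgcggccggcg
Tmprss2, chr16:97611196-97611445, minus strand: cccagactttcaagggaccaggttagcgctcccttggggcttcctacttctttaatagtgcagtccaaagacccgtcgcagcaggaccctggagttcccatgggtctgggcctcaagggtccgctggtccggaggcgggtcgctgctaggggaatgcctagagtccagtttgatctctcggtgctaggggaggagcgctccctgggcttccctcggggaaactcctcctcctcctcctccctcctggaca
Hpgd, chr8:56294302-56294551, plus strand: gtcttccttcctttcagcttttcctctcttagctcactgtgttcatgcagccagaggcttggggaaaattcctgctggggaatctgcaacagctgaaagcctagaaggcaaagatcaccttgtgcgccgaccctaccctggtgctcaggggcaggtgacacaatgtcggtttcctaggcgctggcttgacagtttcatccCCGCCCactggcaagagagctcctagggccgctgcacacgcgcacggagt
Abhd2, chr7:79273036-79273198, plus strand: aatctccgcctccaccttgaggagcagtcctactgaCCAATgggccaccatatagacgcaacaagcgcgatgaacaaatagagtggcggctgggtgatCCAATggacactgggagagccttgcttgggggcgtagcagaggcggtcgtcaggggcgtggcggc

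The *Fkbp5* window lies within the annotated span of the gene, upstream of an internal start site, and outside its annotated exons. Of the *Abhd2* window of 250 bases, the 163 that lie outside annotated exons are shown. The *Fkbp5* window held 3 GC boxes and 2 CCAAT boxes, the *Tmprss2* window neither, the *Hpgd* window 1 GC box, and the whole *Abhd2* window 1 GC box and 2 CCAAT boxes, both among the bases shown. A GC box was present in 32.7% and a CCAAT box in 33.8% of 32851 promoter windows of the same length. The 6-base core AGAACA, which several steroid receptors share, was found on neither strand of the 4 windows and in 16.1% of all windows. The inverted repeat of this core with a spacer of 3 bases was in 3 of the 32851 windows, none of them a member's. The absence of these letters concerns the windows read and no other part of the genes.

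After quality filters, 824, 2194 and 1673 cells of runs 1, 2 and 3 and 5198 explant cells were assigned to 1 sorted population or day, with medians of 9750.0 to 14785 UMIs per cell. Clusters were made without the 5 members and named from marker genes, with the suffix -like, after the luminal classes Lum-A to Lum-F of the study. UMIs were then summed over the luminal-like or basal-like cells of each population and run, and levels are given as CPM, the UMIs of a gene scaled to a common total for each sum. Intact luminal sums held 479383 to 8689128 UMIs. The intact DLP RFP+ barcode had failed in runs 1 and 2, so this population has 1 run. Between libraries, 0 to 6 cell barcodes were shared, and at most 2 among assigned cells. Each run is a separate pool of mice and the unit of replication, and populations of a run come from the same pool. The 50 most abundant genes took 62.8% to 68.0% of the UMIs in intact VP luminal sums and 60.5% in the DLP RFP+ sum. In the sums of AP and of DLP RFP- cells they took 23.5% to 46.5%. This lowers the CPM of every other gene in VP and in DLP RFP+ cells. The tests therefore used scaling factors (TMM) that allow for this.

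**Figure D1:**
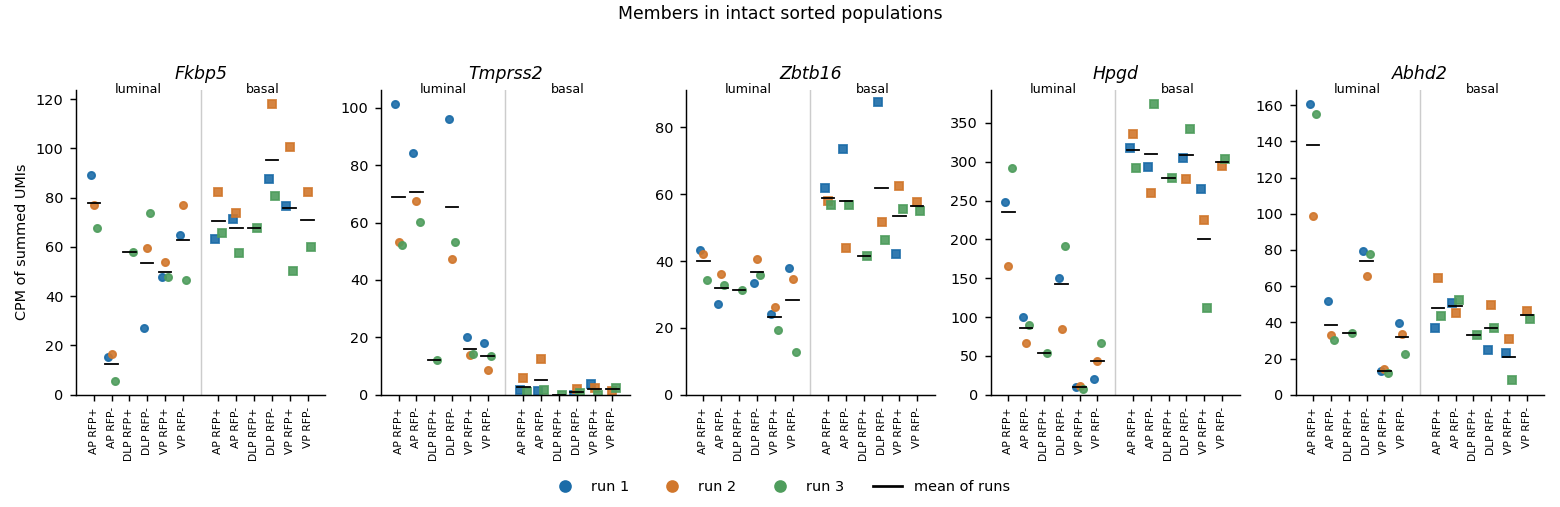
CPM of each member (y axis, linear, from 0) in intact luminal-like (circles, left) and basal-like sums (squares, right) of the 6 sorted populations, with 1 point for each run and a bar at the mean of the runs. Among luminal sums, *Fkbp5* is lowest in AP RFP- cells (5.7 to 16.6 CPM), *Tmprss2* is low in VP and in basal sums, and *Hpgd* and *Abhd2* are highest in AP RFP+ cells.

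*Fkbp5* was low in 1 luminal population of the intact prostate. In AP RFP- luminal cells it measured 15.2, 16.6 and 5.7 CPM in runs 1, 2 and 3, a mean of 12.5 ± 5.9 (SD, n = 3 runs). In AP RFP+ luminal cells of the same pools it measured 89.3, 77.2 and 67.6 CPM, or 78.0 ± 10.9 (SD, n = 3 runs). Every RFP+ sum lay above every RFP- sum. VP luminal cells held 49.9 ± 3.4 CPM in the RFP+ and 62.8 ± 15.3 CPM in the RFP- gate, DLP RFP- cells 53.4 ± 23.9 CPM (SD, n = 3 runs each), and DLP RFP+ cells 58.0 CPM in their 1 run. From the highest mean CPM to the lowest, before TMM scaling, the order was AP RFP+, VP RFP-, DLP RFP+, DLP RFP-, VP RFP+ and AP RFP-. The 3 runs of AP RFP- cells overlapped with no other luminal population, and the share of all genes with runs apart likewise was not counted. With TMM scaling, AP RFP+ over AP RFP- cells was at log2 2.33, AP RFP- over VP RFP- cells at -3.10, and VP RFP+ over VP RFP- cells at -0.29. By these point estimates both VP populations stood above AP RFP+ cells, a contrast that was not tested.

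The membrane protease gene *Tmprss2* was high in AP and in DLP RFP- luminal cells and low in VP and in DLP RFP+ cells. It measured 68.8 ± 28.0 CPM in AP RFP+, 70.5 ± 12.4 in AP RFP- and 65.5 ± 26.6 in DLP RFP- luminal cells (SD, n = 3 runs each). It measured 16.1 ± 3.6 CPM in VP RFP+ and 13.5 ± 4.7 CPM in VP RFP- luminal cells, and 12.2 CPM in DLP RFP+ cells. The DLP RFP+ value rests on 1 run, in which 39 of 66 cells were Lum-A-like. There the 50 most abundant genes took 60.5% of the UMIs, and the part of class and scale in this value was not tested. The highest VP value, 20.2 CPM, lay under the lowest AP or DLP RFP- value, 47.3 CPM. Run 1 was the high run for *Tmprss2*, with 101.2 CPM in AP RFP+ cells against 53.3 and 52.0 CPM in runs 2 and 3. In basal-like sums *Tmprss2* was close to the limit of detection, at 2.9 ± 2.6 CPM in AP RFP+ cells (SD, n = 3 runs), 0 to 3.8 CPM in VP RFP+ cells and 0 of 3073490 UMIs in DLP RFP+ cells.

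*Zbtb16* varied least between the lobes in CPM before TMM scaling. Its luminal means were 40.0 ± 4.9 CPM in AP RFP+, 32.1 ± 4.5 in AP RFP-, 36.6 ± 3.6 in DLP RFP-, 23.3 ± 3.5 in VP RFP+ and 28.4 ± 13.6 in VP RFP- cells (SD, n = 3 runs each). The VP RFP+ runs (19.4 to 26.2 CPM) lay under those of AP RFP+ (34.3 to 43.4), AP RFP- (27.2 to 36.1) and DLP RFP- cells (33.4 to 40.5). The VP RFP- runs alone spanned 12.8 to 37.9 CPM and overlapped with each of these populations. The lower CPM in VP depends on the scale. With TMM scaling, AP RFP- over VP RFP- cells was at log2 -0.70, opposite in direction to the mean CPM, and VP RFP+ over VP RFP- cells at -0.21. Basal-like cells stood above the luminal means in CPM, with 58.9 ± 2.7 CPM in AP RFP+ and 53.5 ± 10.4 CPM in VP RFP+ cells (SD, n = 3 runs each).

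*Hpgd* and *Abhd2*, the lipid enzymes of the group, were highest in AP RFP+ and lowest in VP RFP+ luminal cells. *Hpgd* measured 247.8, 166.0 and 291.8 CPM in AP RFP+ cells and 9.9, 11.9 and 7.5 CPM in VP RFP+ cells of runs 1, 2 and 3. AP RFP- cells held 85.4 ± 17.3 CPM, DLP RFP- cells 142.4 ± 53.8 CPM and VP RFP- cells 43.4 ± 23.4 CPM (SD, n = 3 runs each). *Abhd2* followed the same order at the extremes, with 160.9, 98.6 and 155.0 CPM in AP RFP+ cells and 13.1, 14.4 and 12.1 CPM in VP RFP+ cells. In between it measured 74.1 ± 7.5 CPM in DLP RFP-, 38.3 ± 11.8 in AP RFP- and 31.9 ± 8.7 in VP RFP- cells (SD, n = 3 runs each). The runs of AP RFP- and VP RFP- cells overlapped for both genes. *Hpgd* was also high in basal-like cells, at 315.0 ± 22.2 CPM in AP RFP+ sums, while *Abhd2* was at 48.2 ± 14.5 CPM there (SD, n = 3 runs each).

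The first comparison asked whether luminal cells with an active *Runx1* P2 promoter differ from the other luminal cells of the same lobe. In AP, 3 of the 5 members were higher in RFP+ cells by edgeR's quasi-likelihood test. *Fkbp5* was 5.02-fold higher (log2 2.33 ± 0.33, SE, adjusted p = 0.00018), *Abhd2* 3.23-fold higher (log2 1.69 ± 0.18, adjusted p = 2.8e-05) and *Hpgd* 2.53-fold higher (log2 1.34 ± 0.34, adjusted p = 0.0096), each in 3 of 3 runs. *Tmprss2* (log2 -0.20 ± 0.23, adjusted p = 0.58) and *Zbtb16* (log2 0.15 ± 0.27, adjusted p = 0.76) did not pass the test. Of all 10425 genes, 24.5% passed it in this comparison, so a call was common here. Without run 2 the *Hpgd* difference did not pass (log2 1.42, adjusted p = 0.10). The gates also differed in luminal class, since 391 of 457 AP RFP+ luminal cells were Lum-D-like and 229 of 266 AP RFP- cells were Lum-B-like. The summed level of 5 basal keratin and *Trp63* markers was 1127 to 2826 CPM in AP RFP+ and 34.3 to 760 CPM in AP RFP- luminal sums, with 5 and 3 to 5 of the 5 detected, against 9387 to 11739 CPM in AP RFP+ basal-like sums. In such sums, fewer cells that carry a gene and less of its RNA per cell cannot be told apart. The part of class and of basal transcripts in these differences was not tested.

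In VP the gates differed in the opposite direction for the lipid enzymes. *Hpgd* measured 9.9, 11.9 and 7.5 CPM in VP RFP+ cells against 19.8, 43.6 and 66.6 CPM in VP RFP- cells, and *Abhd2* 13.1, 14.4 and 12.1 CPM against 39.7, 33.6 and 22.5 CPM. No run overlapped between the gates for either gene, and the share of all genes with runs apart likewise was not counted. In all, 2 of 5 members passed the test, *Hpgd* with log2 -2.21 ± 0.38 (SE, adjusted p = 0.0197) and *Abhd2* with log2 -1.18 ± 0.20 (adjusted p = 0.0186), where 0.317% of all genes did. *Fkbp5* (log2 -0.29), *Tmprss2* (log2 0.42) and *Zbtb16* (log2 -0.21) had adjusted p of 0.94 to 1. Both calls were lost with fewer runs. Without run 2, *Hpgd* had log2 -2.47 (adjusted p = 0.43) and *Abhd2* log2 -1.21 (adjusted p = 0.61), without run 3 they had log2 -1.57 (adjusted p = 0.42) and -1.28 (adjusted p = 0.28), and without run 1 *Abhd2* had log2 -1.08 (adjusted p = 0.079). The RFP- sum of run 1 held 10 cells. Lum-C-like cells, with *Hpgd* at 121.2 and 213.3 CPM and *Abhd2* at 98.1 and 60.0 CPM in VP RFP- cells of runs 2 and 3, were 37 of 122 VP RFP- luminal cells and 4 of 379 VP RFP+ cells. Within Lum-A-like cells, *Abhd2* measured 12.9 and 11.4 CPM in RFP+ and 8.6 and 9.9 CPM in RFP- cells of runs 2 and 3, and *Hpgd* 9.1 and 6.9 CPM against 13.5 and 14.4 CPM, and *Abhd2* was thus not lower in the RFP+ cells of that class. The part of class in the difference between the gates was not tested further.

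The effect of the gate differed between the lobes for the same 3 members by the interaction term of the fit, where 5.29% of all genes passed. The difference of the log2 fold changes, AP minus VP, was 2.87 ± 0.27 for *Abhd2* (SE, adjusted p = 7.0e-05), 3.55 ± 0.51 for *Hpgd* (adjusted p = 0.0016) and 2.62 ± 0.44 for *Fkbp5* (adjusted p = 0.0050). It was 0.36 ± 0.38 for *Zbtb16* and -0.63 ± 0.37 for *Tmprss2*, with adjusted p of 0.70 and 0.39. Without run 2, *Fkbp5* (2.87, adjusted p = 0.20) and *Hpgd* (3.89, adjusted p = 0.15) no longer passed, and without run 3 *Fkbp5* did not (2.62, adjusted p = 0.053). *Abhd2* passed without any 1 run.

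**Figure D2:**
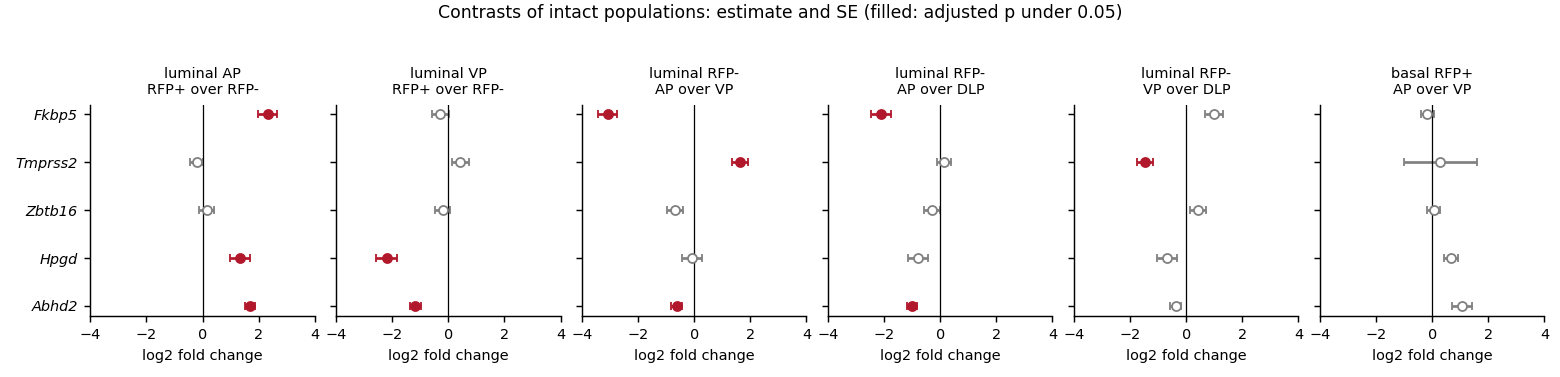
Log2 fold change of each member (x axis) with its SE in 6 contrasts of intact sums, from edgeR's quasi-likelihood fit. Filled points have an adjusted p under 0.05. *Fkbp5*, *Hpgd* and *Abhd2* lie to the right in the AP contrast, *Hpgd* and *Abhd2* to the left in the VP contrast, and no point is filled in the basal contrast.

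Among RFP- luminal cells the lobes were then compared with each other. *Fkbp5* was 8.60-fold lower in AP than in VP (log2 -3.10 ± 0.35, SE, adjusted p = 2.7e-05) and *Tmprss2* 3.06-fold higher (log2 1.61 ± 0.29, adjusted p = 0.0014), each in 3 of 3 runs. *Abhd2* was lower in AP with adjusted p = 0.041 (log2 -0.64 ± 0.20), although its mean CPM before TMM scaling was not, and it failed the test when any 1 run was left out (adjusted p of 0.060 to 0.29). These 3 calls stood against 15.4% of all genes. Without run 2 *Tmprss2* had log2 1.11 (adjusted p = 0.12). *Zbtb16* had log2 -0.70 ± 0.29 with adjusted p = 0.12, and passed once the run was added to the fit as a block that pairs the populations of 1 pool (adjusted p = 0.027). *Hpgd* had log2 -0.10 ± 0.36 (adjusted p = 0.92).

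Against DLP RFP- cells, AP RFP- cells had 4.35-fold less *Fkbp5* (log2 -2.12 ± 0.34, SE, adjusted p = 0.0065) and 2.03-fold less *Abhd2* (log2 -1.02 ± 0.19, adjusted p = 0.013), where 1.24% of all genes passed. Neither passed without run 2 (adjusted p = 0.20 and 0.38) or without run 3 (adjusted p = 0.20 and 0.21). VP RFP- cells had 2.79-fold less *Tmprss2* than DLP RFP- cells (log2 -1.48 ± 0.29, adjusted p = 0.0075), where 6.50% of all genes passed, and this call was lost without run 2 (adjusted p = 0.18) or run 3 (adjusted p = 0.065). *Fkbp5* was higher in VP with log2 0.98 ± 0.31 and adjusted p = 0.070, which became 0.017 with the run as a block. AP RFP- and DLP RFP- luminal cells were mostly Lum-B-like (86.1% and 64.1%), whereas 16.8% of DLP RFP- cells and 0.75% of AP RFP- cells were Lum-C-like. Within Lum-B-like cells *Fkbp5* was also lower in AP RFP- than in DLP RFP- cells of each run: it measured 5.2, 6.3 and 6.1 CPM against 17.6, 44.2 and 23.4 CPM in runs 1, 2 and 3, although the counting intervals overlapped in runs 1 and 3, where 4 to 19 UMIs stood behind a value.

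In basal-like cells the members did not separate the lobes in the main fit. *Hpgd* measured 317.4, 335.8 and 291.7 CPM in AP RFP+ and 264.5, 224.7 and 111.3 CPM in VP RFP+ basal-like cells, and *Abhd2* 36.6, 64.5 and 43.4 CPM against 23.0, 30.7 and 8.3 CPM. The runs of the lobes did not overlap for either gene, and the share of all genes with runs apart likewise was not counted. By edgeR's test and by DESeq2 0 of the 5 members passed, and by edgeR 0.669% of 8966 genes did. *Abhd2* had log2 1.06 ± 0.36 (SE, adjusted p = 0.33) and *Hpgd* log2 0.66 ± 0.25 (adjusted p = 0.43), with unadjusted p of 0.010 and 0.019. With the run as a block, which raised the calls among all genes from 60 to 570, both passed (adjusted p = 0.013 and 0.021). *Fkbp5* and *Zbtb16*, at 50.1 to 100.7 and 42.2 to 62.6 CPM over these 6 sums, gave log2 -0.18 and 0.05.

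Levels by cluster show which luminal classes carried each member. They are a description without a test, since the same cells made the clusters. *Fkbp5* was at 11.8 to 15.0 CPM in Lum-B-like cells of the 3 runs, at 47.3 to 51.0 CPM in Lum-A-like cells, at 82.2 to 100.9 CPM in Lum-D-like cells and at 113 to 136 CPM in the 2 runs with Lum-C-like cells. *Tmprss2* had another order, with 79.8 to 83.2 CPM in Lum-B-like cells, 40.8 to 115.0 CPM in Lum-D-like cells and 10.7 to 17.9 CPM in the cells of classes Lum-A-like and Lum-C-like. Lum-B-like cells thus held the lowest *Fkbp5* of the classes present in each run, although their level differed by lobe as given above. Lum-D-like cells held both *Fkbp5* and *Tmprss2* at high levels.

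*Hpgd* was at 226 to 301 CPM in Lum-D-like cells, 150 to 307 CPM in Lum-C-like cells, 83.9 to 116.8 CPM in Lum-B-like cells and 7.3 to 12.1 CPM in Lum-A-like cells. Runs of Lum-C-like and Lum-D-like cells overlapped for *Hpgd*. *Abhd2* kept that order without overlap, with 159.8 to 174.7 CPM in Lum-D-like, 91.3 to 93.7 CPM in Lum-C-like, 40.8 to 52.3 CPM in Lum-B-like and 12.1 to 13.5 CPM in Lum-A-like cells. *Abhd2* is on the study's own gene list for Lum-D, so its level there is not independent of that class. *Zbtb16* lay between 19.8 and 53.3 CPM in all 4 classes, with its lowest values in Lum-A-like cells. The low levels of *Hpgd*, *Abhd2* and *Zbtb16* in Lum-A-like cells coincide with the large share of secretory transcripts in that class, and their part in those levels was not tested.

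**Figure D3:**
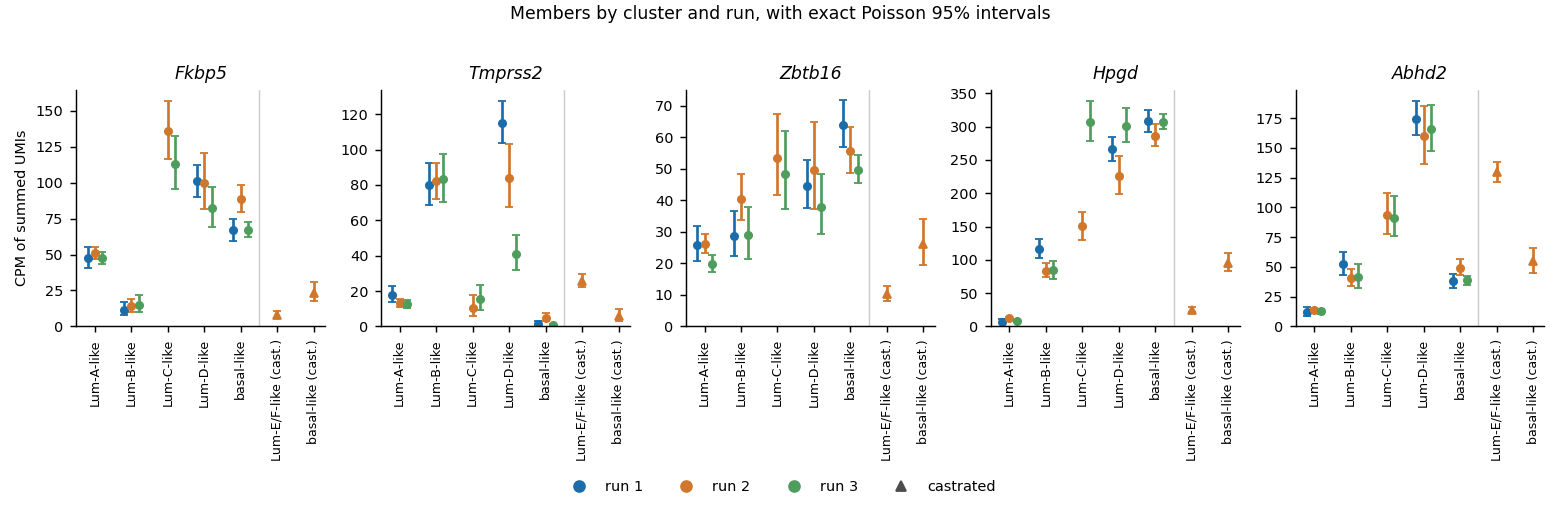
CPM of each member (y axis, linear, from 0) by cluster and run, with exact Poisson 95% intervals, for intact cells (circles) and, right of the line, for castrated cells of run 2 (triangles). *Fkbp5* is lowest and *Tmprss2* high in intact Lum-B-like cells, both are high in Lum-D-like cells, and castrated Lum-E/F-like cells hold 8.1 CPM of *Fkbp5* and 129.7 CPM of *Abhd2*.

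The castrated cells addressed how the members stand where androgen has been withdrawn. Castrated and intact cells of run 2 were 1 pool of mice each within 1 library, so differences between them have no replicate check and no p-value, and free RNA could pass between them. Counting intervals are exact and 95%, and they cover counting error only. Luminal-like cells could be compared in 4 populations and basal-like cells in 2, which gave 28 comparisons of a member with at least 20 UMIs in 1 of the sums. In 18 of them the castrated level was at least 2-fold lower, and in 2 at least 2-fold higher, where 2.46% to 15.6% of all genes in a population were that much lower and 1.30% to 43.7% higher. After castration most luminal cells fell into other clusters, with Lum-E/F-like cells making up 82.4% in AP RFP+, 72.9% in AP RFP-, 60.0% in DLP RFP- and 84.1% in VP RFP+ populations.

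AP RFP+ luminal cells had the largest *Fkbp5* difference of the 6 populations by point estimate. The interval of its castrated to intact ratio (0.091 to 0.20) overlapped with that of AP RFP+ basal-like cells (0.086 to 0.26). In the luminal cells *Fkbp5* measured 10.5 CPM in 193 castrated cells (36 UMIs, interval 7.4 to 14.6) and 77.2 CPM in 99 intact cells (126 UMIs, interval 64.3 to 91.9), 7.34-fold lower. *Hpgd* was 29.5 CPM against 166.0 CPM, 5.62-fold lower, *Zbtb16* 13.1 against 42.3 CPM, 3.21-fold lower, and *Tmprss2* 26.3 against 53.3 CPM, 2.03-fold lower. These 4 of 5 members passed 2-fold where 5.87% of all genes were that much lower and 9.69% that much higher. *Abhd2* stood at 123.9 CPM (interval 112.4 to 136.2) in castrated and 98.6 CPM (interval 84.0 to 115.1) in intact cells, a ratio of 1.26 (interval 1.05 to 1.52). As a mean over cells in place of a sum its log2 ratio was -0.03, and with at most 7500 UMIs per cell -0.38, so its direction differed between these settings. The 5 basal markers summed to 269 CPM in the castrated and 1426 CPM in the intact sum of run 2, and their part in these ratios was not tested.

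In the other luminal populations the members differed more from each other. AP RFP- cells had *Tmprss2* at 10.6 CPM after castration against 67.5 CPM (6.36-fold lower) and *Hpgd* at 21.2 against 66.3 CPM (3.12-fold lower), where 14.2% of all genes were at least 2-fold lower. *Abhd2* was higher there, at 73.2 CPM against 33.1 CPM (ratio 2.21, interval 1.61 to 3.01), where 4.55% of all genes were at least 2-fold higher. *Fkbp5*, already low in intact AP RFP- cells, was at 27.6 CPM after castration against 16.6 CPM. Of these 48 castrated cells 10 were Lum-A-like, with 22 of the 26 *Fkbp5* UMIs. Of the 144 intact cells 20 were Lum-A-like. Without Lum-A-like cells in either sum, an alternative chosen after seeing the data, the *Fkbp5* log2 ratio was 0.12 in place of 0.75, that of *Zbtb16* -0.24 in place of 0.38 and that of *Abhd2* 1.87 in place of 1.15.

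In the 20 castrated DLP RFP- luminal cells 4 members were lower, *Tmprss2* at 4.3 CPM (2 UMIs) against 47.3 CPM (ratio 0.090, interval 0.011 to 0.34), *Zbtb16* at 10.7 against 40.5 CPM, *Hpgd* at 25.6 against 85.1 CPM and *Fkbp5* at 27.7 against 59.4 CPM. There 15.6% of all genes were at least 2-fold lower and 1.30% higher. Without Lum-A-like cells in either sum, *Hpgd* had a log2 ratio of -0.60 in place of -1.68, *Fkbp5* one of -2.46 in place of -1.05 and *Abhd2* one of 0.37 in place of -0.74.

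In VP RFP+ luminal cells *Fkbp5* and *Zbtb16* were lower and *Abhd2* was higher in CPM. *Fkbp5* was at 53.9 CPM intact and 18.7 CPM castrated (2.88-fold lower) and *Zbtb16* at 26.2 and 8.5 CPM (3.08-fold lower), whereas *Abhd2* was at 14.4 and 55.6 CPM (ratio 3.87, interval 3.01 to 4.97). The scale itself differed here, as the 50 most abundant genes held 68.0% of intact and 35.4% of castrated UMIs and the median gene moved by log2 0.91. Accordingly 2.46% of all genes were at least 2-fold lower and 43.7% at least 2-fold higher. With totals that left out those 50 genes, the log2 ratios were -2.53 for *Fkbp5*, -2.60 for *Zbtb16*, -1.19 for *Tmprss2* and 0.94 for *Abhd2*, and that of *Hpgd* turned from 0.39 to -0.62. Without Lum-A-like cells in either sum, which leaves out 171 of the 182 intact cells, the log2 ratio of *Abhd2* was 0.005, and those of *Fkbp5*, *Hpgd* and *Tmprss2* were -3.47, -2.53 and -1.34.

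In basal-like cells *Fkbp5*, *Hpgd* and *Zbtb16* were lower after castration in both lobes. In AP RFP+ basal-like cells *Fkbp5* was at 82.1 CPM intact and 12.8 CPM castrated (6.44-fold lower), *Hpgd* at 335.8 and 72.6 CPM (4.63-fold lower) and *Zbtb16* at 57.9 and 23.9 CPM (2.42-fold lower), while *Abhd2* was at 64.5 and 57.4 CPM. At least 2-fold lower there were 11.4% of all genes, and 1.80% were higher. In VP RFP+ basal-like cells *Fkbp5* was at 100.7 CPM intact and 36.3 CPM castrated (2.78-fold lower), *Zbtb16* at 62.6 and 24.2 CPM (2.59-fold lower) and *Hpgd* at 224.7 and 91.9 CPM (2.44-fold lower), where 14.1% of all genes were lower and 2.63% higher. *Tmprss2* had 2 to 8 UMIs in these 4 sums and was not compared. Luminal keratin and related markers summed to 4094 CPM in castrated and 2308 CPM in intact AP RFP+ basal-like cells of run 2, and to 3499 and 1913 CPM in those of VP RFP+, and their part in the ratios was not tested.

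**Figure D4:**
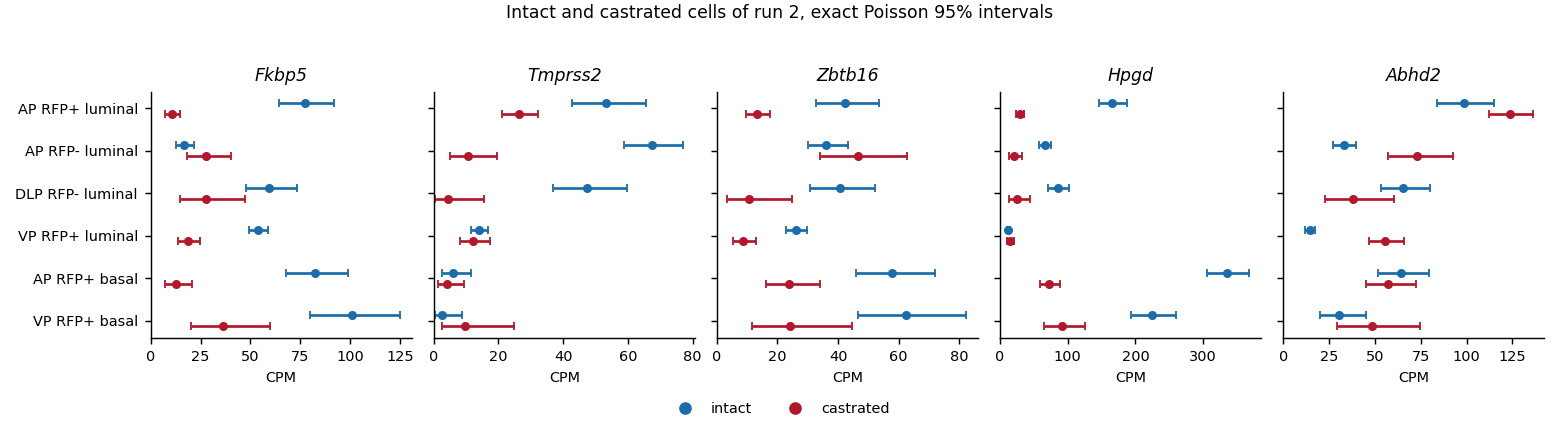
CPM of each member (x axis, linear, from 0) in intact (blue) and castrated (red) cells of run 2, by population, with exact Poisson 95% intervals. *Fkbp5* and *Zbtb16* are lower after castration in 5 of the 6 populations, and *Abhd2* is higher in AP RFP- and VP RFP+ luminal cells.

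The share of cells with a member's UMI gave a view of AP RFP+ cells that does not rest on sums. After thinning to 3000 UMIs per cell, 24 of 95 intact luminal-like cells (25.3%, exact binomial interval 16.9% to 35.2%) and 3 of 190 castrated ones (1.58%, interval 0.33% to 4.54%) had an *Fkbp5* UMI, leaving out 4 and 3 shallower cells. Unthinned shares were 54.5% and 11.4%, at medians of 9972 and 11908 UMIs. Intact blood-lineage (hematopoietic-like) cells of the same library, as a comparison for free RNA, gave 3.52% (7 of 199, median 6462 UMIs unthinned, 24 left out). Castrated blood-lineage cells gave 0 of 44 (exact upper bound 8.04%), and 0 of 47 unthinned. The thinned castrated luminal share was thus not above that of the intact blood-lineage cells (unthinned 8.52%), and whether those carry *Fkbp5* RNA of their own was not tested. *Zbtb16* went from 15.8% to 3.68%, against 1.51% in blood-lineage cells, *Hpgd* from 45.3% to 10.5%, against 5.03%, and *Tmprss2* from 14.7% to 5.79%, against 0 of 199, with an exact upper bound of 1.84%. *Abhd2* was at 32.6% in both intact and castrated luminal cells. In basal-like cells the thinned *Fkbp5* share was 24.6% (28 of 114) intact and 3.52% (5 of 142) castrated, and that of *Hpgd* 52.6% and 16.2%.

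Castrated cells of different clusters did not share 1 level. In run 2, castrated Lum-E/F-like cells held *Fkbp5* at 8.1 CPM, castrated Lum-D-like cells at 15.4 CPM and castrated Lum-A-like cells at 44.8 CPM, beside 51.0 CPM in intact Lum-A-like cells of that run. Lum-A-like cells were 11 of 193 castrated AP RFP+ luminal cells, 5 of 20 DLP RFP- cells, 8 of 126 VP RFP+ cells and 7 of 8 VP RFP- cells. In AP RFP+ cells, the 11 Lum-A-like cells held 23 of the 36 *Fkbp5* UMIs, and without Lum-A-like cells in either sum the castrated to intact log2 ratio was -4.21 in place of -2.86. Castrated and intact cells of run 2 were told apart by barcode in 1 library, and whether barcode assignment had a part in the castrated Lum-A-like cells was not tested. Castrated DLP RFP+ luminal cells, which had no intact partner in run 2, held *Fkbp5* at 10.9 CPM, *Zbtb16* at 4.5 CPM and *Abhd2* at 161.8 CPM in their 133 Lum-E/F-like cells.

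The explants addressed what the members did while dihydrotestosterone was supplied to fetal epithelium. Each day was 1 pool, the 3 cultured days share the same uncultured day 0, and day of culture and hormone cannot be told apart, because no explant was cultured without it. Prostatic-epithelium-like cells numbered 463, 435, 933 and 1961 on days 0, 1, 3 and 6. *Zbtb16* went from 1.6 CPM (19 UMIs, exact Poisson interval 0.97 to 2.5) to 6.1, 8.0 and 19.2 CPM, a ratio of 11.9 on day 6 (interval 7.57 to 19.98). *Hpgd* went from 6.8 CPM (80 UMIs, interval 5.4 to 8.4) to 17.7, 43.3 and 59.3 CPM, a ratio of 8.78 on day 6 (interval 7.02 to 11.1). Both were thus higher on each later day sampled, with intervals that did not overlap between day 0 and day 1. *Fkbp5* went from 9.0 CPM to 16.6, 13.6 and 15.1 CPM, and its largest ratio was 1.84 on day 1 (interval 1.44 to 2.36). These sums left out the 382 cells of cluster 3, which was not named. Its leading genes include *Psca*, *Nupr1*, *Ly6d* and *Krt4*, which the study reports for its Lum-D-like prostatic cluster. In cluster 3 *Fkbp5* was at 14.4, 46.2 and 44.6 CPM on days 1, 3 and 6. *Zbtb16* was at 5.4, 19.4 and 37.5 CPM there, and *Hpgd* at 2.5, 57.8 and 60.2 CPM. *Tmprss2* was higher there than in the sums above on each of these days.

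*Abhd2* stood at 23.4 CPM on day 0 and at 30.4, 35.4 and 27.3 CPM afterwards, and *Tmprss2* was at 6.1 CPM on day 0 and at 5.8, 2.3 and 1.4 CPM afterwards (40 UMIs on day 6). At least 2-fold higher than day 0 were *Zbtb16* and *Hpgd* on each of 3 days, 6 of 15 pairs of member and day, against 3.26%, 5.99% and 7.87% of all genes on days 1, 3 and 6. *Tmprss2* was at least 2-fold lower on days 3 and 6, against 8.61% and 10.0% of all genes on those days and 3.07% on day 1. Over all cells of a day in place of the prostatic ones, the *Tmprss2* log2 ratios were -0.05 and -0.52 on days 3 and 6 and thus under 2-fold. Summed marker levels of 4 lists moved with it in the prostatic sums from day 0 to day 6, from 641 to 190 CPM for 6 urothelium markers, 518 to 151 CPM for up to 7 mesonephric markers, 3610 to 1346 CPM for 5 luminal markers and 578 to 142 CPM for 5 Lum-D markers, and their part in the *Tmprss2* ratios was not tested.

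**Figure D5:**
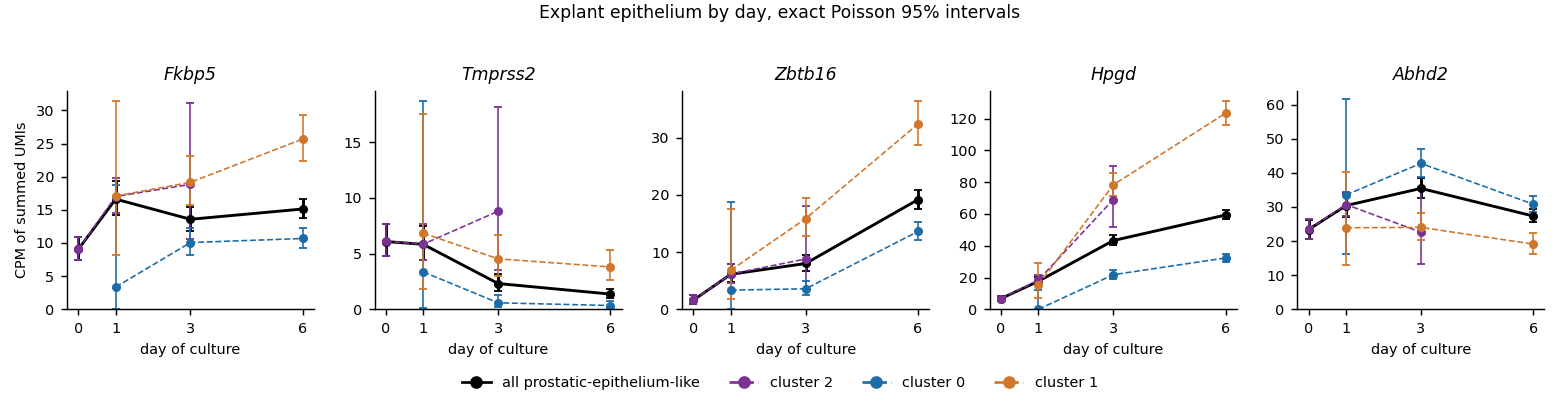
CPM of each member (y axis, linear, from 0) in prostatic-epithelium-like explant cells (black) and in their clusters (dashed) by day of culture, with exact Poisson 95% intervals. *Zbtb16* and *Hpgd* are higher on each later day, and higher in cluster 1 than in cluster 0, while *Tmprss2* is lower on days 3 and 6 than on day 0.

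Cell clusters changed with the day as well. Of day 0 cells 461 of 463, and of day 1 cells 385 of 435, were in cluster 2. Its leading genes include the hemoglobin gene *Hbb-bs*, the heat-shock gene *Hspa1a*, *Isl1* and *Shh*. Prostatic-epithelium-like cells of days 3 and 6 were almost wholly in cluster 0 and in cluster 1, whose leading genes include *Krt5* and *Krt14*. Within cluster 2, the log2 ratios of day 1 to day 0 were 1.91 for *Zbtb16*, 1.44 for *Hpgd* and 0.91 for *Fkbp5*, near those of all prostatic cells (1.91, 1.38 and 0.88). On day 6, cluster 1 held more *Hpgd* (123.5 CPM against 32.3 CPM in cluster 0), more *Zbtb16* (32.4 against 13.6 CPM) and more *Fkbp5* (25.7 against 10.7 CPM), and less *Abhd2* (19.1 against 30.8 CPM). Between days 3 and 6 *Zbtb16* was higher within each of these clusters, from 3.6 to 13.6 CPM in cluster 0 and from 15.8 to 32.4 CPM in cluster 1. *Tmprss2* was at 61.6 to 65.8 CPM in urothelium-like cells of days 1 to 6, a cell type of the bladder lining that the sinus also forms, in which *Fkbp5* was at 3.5 to 7.7 CPM.

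Lists of related genes, drawn up with earlier results of these data known, placed the members in their pathways. Of 30 other androgen-responsive genes measured in intact luminal cells, 8 were higher and 7 lower in AP RFP+ than in AP RFP- cells, where 24.5% of all genes passed in either direction, with a median log2 fold change of 0.12 against 0.01 over all genes. *Pmepa1* (log2 3.74) and *Tnfaip8* (log2 3.52) were among the higher. Between the VP gates the median was -0.03 against 0.03 over all genes, and between AP and VP RFP- cells 5 of the 30 were higher and 4 lower, where 15.4% of all genes passed. Targets shared with the glucocorticoid receptor moved both ways in AP, 4 higher and 3 lower of 11, with *Cebpd* at log2 2.52 and the metallothionein gene *Mt1* at -2.33.

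After castration of AP RFP+ luminal cells, 5 of 27 other androgen-responsive genes were at least 2-fold lower and 3 higher, against 5.87% and 9.69% of all genes, with a median log2 ratio of 0.07 against 0.14 over all genes. *Tnfaip8* (log2 -3.12) was lower, and *Ndrg1* (log2 3.09) and *Sgk1* (log2 1.98) higher. In AP RFP- cells 6 of 22 were lower (14.2% of all genes) and 1 higher (4.55%), among them the secretory gene *Pbsn* (log2 -3.47), and in DLP RFP- cells 5 of 20 were lower (15.6% of all genes) and none higher (1.30%). In VP RFP+ luminal cells 16 of 26 were higher (43.7% of all genes) and 2 lower (2.46%), with a median of 1.36 where that of all genes was 0.91. In explants 4 of 27, 9 of 28 and 9 of 30 androgen-responsive genes were at least 2-fold higher than day 0 on days 1, 3 and 6, with 1, 4 and 2 lower, where 3.26%, 5.99% and 7.87% of all genes were higher and 3.07%, 8.61% and 10.0% lower. Of 12 genes of steroid receptors and their partners, 1 was higher and 4 were lower in AP RFP+ than in AP RFP- luminal cells. There 24.5% of all genes passed in either direction. *Esr1*, an estrogen receptor gene, was at log2 -0.99.

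Around *Hpgd*, genes of the prostaglandin pathway were 4 higher and 1 lower of 9 in AP RFP+ luminal cells, where 24.5% of all genes passed. *Hpgd* was not among the 9. The prostaglandin transporter gene *Slco2a1* (log2 2.63) and the phospholipase gene *Pla2g4a*, which frees arachidonic acid (log2 2.32), were higher and *Akr1b3* lower (log2 -2.33). The gate effect on *Slco2a1* also differed between AP and VP (log2 4.33, 1 of 3 higher and 1 lower of 9), where 5.29% of all genes passed. After castration of AP RFP+ luminal cells *Pla2g4a* was at log2 -2.83. Around *Tmprss2*, the membrane protease gene *Hpn* was higher in AP than in VP RFP- cells (log2 3.37). It was the only 1 of 8 membrane serine protease and inhibitor genes to pass, where 15.4% of all genes did. After castration in AP RFP+ cells *Hpn* was at log2 -1.38. In explants *Tmprss4* was at log2 -4.17 on day 6, among 4 of 8 genes of that list that were at least 2-fold lower, while 1 was higher. Of all genes, 10.0% were that much lower on day 6 and 7.87% higher. Around *Zbtb16*, 4 of 8 related BTB factor genes were higher and 1 lower in AP RFP+ cells, where 24.5% of all genes passed. *Bcl6* was at log2 1.49 and *Zbtb10* at -1.70. Around *Abhd2*, 1 of 10 lipase genes was higher and 1 lower in AP RFP+ cells, against 24.5% of all genes in either direction. *Mgll*, the monoglyceride lipase gene, was lower after castration in AP RFP- (log2 -4.16), DLP RFP- (log2 -4.72) and VP RFP+ luminal cells (log2 -3.59).

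Across 38 adult sums of at least 20 cells, luminal and basal-like, intact and castrated, the members were set beside 4864 genes by the Pearson correlation of log2 CPM. These sums share libraries, pools and differences in depth, so the values are a description. *Hpgd* was most like *Gsn* (r = 0.91), *Sbspon* (0.91) and *Sema5a* (0.90), and *Tmprss2* most like *Tst*, *P4hb* and *Gfpt1* (0.90 each). *Fkbp5* was most like *Ccbe1* (0.85), *Agtr1a* (0.82) and *Aldh1a7* (0.81), *Zbtb16* most like *Aldh6a1* (0.84), *Hmgn3* (0.78) and *Csad* (0.77), and *Abhd2* most like *Atp8b1*, *Crip1* and *Sqstm1* (0.79 each). Among the members, r was 0.73 for *Zbtb16* with *Hpgd*, 0.61 for *Fkbp5* with *Zbtb16* and 0.51 for *Fkbp5* with *Hpgd*. *Tmprss2* had r of -0.43 with both *Fkbp5* and *Zbtb16* and of -0.36 with *Hpgd*. *Abhd2* had r of -0.13 with each of *Fkbp5* and *Zbtb16*, 0.45 with *Tmprss2* and 0.25 with *Hpgd*. The 5 genes thus did not move as 1 group over these sums.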

How the data were processed

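Cells were dissociated, marked with lipid-tagged barcodes per sorted population or day, and sequenced with 10x 3′ chemistry. The authors aligned reads to mm10 with Cell Ranger 3.1.0 and deposited UMI counts per gene and cell, not normalized. They made the sample barcode counts with deMULTIplex and analysed the cells in Seurat 3.1.5, per the study's methods and processing notes. Cells were assigned here from those deposited barcode counts with the study's thresholds. Adult cells were kept here with 750 to 7500 genes and under 10% mitochondrial UMIs, and explant cells with at least 1000.0 genes and under 7.5%. The upper limit of 7500 was applied to genes, and as an alternative to UMIs, the unit the methods name, which removes most VP luminal cells. Cells were clustered without the members in Seurat 5.3.0 (R 4.3.3) at resolution 0.4 (adult) or 0.3 (explant), and clusters were named from marker lists, so that names are rebuilt and may differ from the study's. Cells over the threshold of more than 1 barcode were left out, and the 6% highest Scrublet scores (scanpy 1.11.5) were removed as an alternative.

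Counts were summed per population and run (at least 10 cells) and fitted with edgeR 4.0.16 (TMM, filterByExpr, quasi-likelihood test, Benjamini-Hochberg adjustment over all genes): 16 luminal sums and 10425 genes, 15 basal sums and 8966 genes. Populations of 1 run share a pool of mice, so the run pairs them. The correlations of their deviations from the group means were 0.03 to 0.45. DESeq2 1.42.0, no filter, other library sizes, the run as a block, fewer populations in the fit, 20 cells per sum, marker gating, a limit of 7500 UMIs per cell and each run left out were alternatives. Where each treatment or day was 1 pool, ratios of summed counts were given without a test for genes with at least 20 UMIs in 1 sum, with a prior count of 0.5 in their log2 values. Tested on simulated data with 100 genes changed 4-fold, the AP gate contrast recovered 77% of them and the interaction 42% (2-fold: 22% and 1%). The text names all members, up to 4 genes of each list with the largest change past the threshold, and for likeness 3 genes per member among those of at least 20 CPM on average. Members and lists were chosen with earlier results of these data known. The castrated pool of run 1 (11 luminal cells, lobes mixed) entered no comparison.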

Additional observations from a re-analysis of the deposited data

Results flagged for a closer look

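The effect of the RFP gate on intact luminal cells differed between AP and VP for 3 members, by the interaction term of edgeR's quasi-likelihood fit. Of all genes, 5.29% passed that test. The difference of the log2 fold changes was 2.62 for *Fkbp5*, 3.55 for *Hpgd* and 2.87 for *Abhd2*. For *Hpgd* and *Abhd2* the RFP+ sums lay above the RFP- sums in all 3 runs of AP and below them in all 3 runs of VP. For *Fkbp5* the gates were apart in AP and overlapped in VP.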

How the results depend on the processing

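Of the values of single members in the tests under other settings, 347 kept their direction and their side of the threshold, 31 lost the call, 6 gained one and 8 changed sign. The sign changes were *Zbtb16* in AP between the gates with marker gating (log2 -0.014), *Hpgd* in AP versus VP without run 3 (0.34, range over runs left out -0.45 to 0.34), *Tmprss2* in AP versus DLP without run 2 (-0.024, range -0.024 to 0.28), *Fkbp5* in AP versus DLP with at most 7500 UMIs per cell (0.13), and in basal cells *Zbtb16* with that limit (-0.24) or without run 1 (-0.088, range -0.088 to 0.20) and *Fkbp5* without run 2 (0.030, range -0.34 to 0.030). The cause was not tested.

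With the run as a block, which pairs the populations of a pool, basal *Zbtb16* was at log2 -0.011, members called went from 0 to 2 in basal cells and from 1 to 2 in VP versus DLP, and genes called among all went from 33 to 92 (VP gates), 129 to 408 (AP versus DLP), 678 to 1385 (VP versus DLP), 551 to 1313 (interaction) and 60 to 570 (basal). Beside it, *Zbtb16* in AP versus VP gained a call, and no call of a member was lost.

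Leaving out 1 run left 2 to 3 members and 687 to 2083 genes (AP gates, from 3 and 2556), 0 to 1 and 0 to 33 (VP gates, from 2 and 33), 1 to 2 and 477 to 1274 (AP versus VP, from 3 and 1605), 0 to 2 and 4 to 105 (AP versus DLP, from 2 and 129), 0 to 1 and 106 to 546 (VP versus DLP, from 1 and 678), 1 to 3 and 5 to 436 (interaction, from 3 and 551) and 0 and 0 to 46 (basal). Fits without a run have fewer sums.

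DESeq2 called 69 genes between the VP gates, 105 in basal cells, and 2 members and 697 genes in VP versus DLP. Without a filter it was 138 genes between the VP gates, 229 in basal cells, 2 members and 884 genes in VP versus DLP, and 339 genes in AP versus DLP. Marker gating gave 21 genes (VP gates), 970 (AP versus VP), 65 (AP versus DLP), 137 and 0 members (VP versus DLP), 297 (interaction) and 36 (basal). With only the populations compared, 1 member and 26 genes were called between the VP gates, 0 members and 60 genes in AP versus DLP, and 406 genes in VP versus DLP. At most 7500 UMIs per cell left 1 member and 258 genes between the AP gates, 0 and 0 in AP versus DLP and 0 genes in basal cells. Only 1877 genes in luminal and 4754 in basal cells were tested there. Contrasts with VP luminal cells could not be fitted there.

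After castration, that limit left 2 pairs lower and 0 higher, with 3 luminal populations not run. In the main setting the populations that remained had 4 (AP RFP+ luminal), 3 (AP RFP+ basal) and 3 (VP RFP+ basal) members lower. Pairs under 20 UMIs were not counted, so a lost difference and lost counts cannot be told apart there. Totals without the 50 most abundant genes left 1 pair higher. Sums without Lum-A-like cells, added after seeing the data, left 18 lower and 1 higher. With castrated cells alone restricted to Lum-E/F-like and Lum-D-like, 15 were lower. In explants, all cells of a day gave 0 lower pairs. Depth limited *Tmprss2* in basal cells and the sums of few cells.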

Other observations

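Outside the epithelial classes, *Hpgd* was also detected in intact fibroblast-like cells, with 154.4 CPM in 34 AP RFP+ cells of run 1, and in endothelial-like cells of that population at 192.8 CPM in 26 cells. These cells passed an EPCAM+ gate, and an *Epcam* UMI was found in 36.6% and 42.6% of the cells of their clusters. Mesonephric-like cells of AP RFP+ in run 3, a cluster led by seminal vesicle secretion genes such as *Svs5* and *Svs4*, held *Hpgd* at 364.9 CPM and *Fkbp5* at 58.1 CPM in 32 cells. In explants, *Fkbp5* was at 53.5 CPM in 71 mesenchyme-like cells on day 1 and at 58.2 CPM in 24 such cells on day 3 (10 UMIs), against 27.4 CPM in 27 cells on day 0 (7 UMIs, interval 11.0 to 56.4). *Tmprss2* had 0 to 3 UMIs in the mesenchyme-like cells of each day.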
